A study of Mus musculus with 8 samples.

Results

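Respiratory complex I, the NADH:ubiquinone oxidoreductase of the inner mitochondrial membrane, was followed here through 35 nuclear genes that encode its subunits. The members were named as subunits of the complex, with earlier results of these data known, and each was matched to array probes through its RefSeq transcript. All 35 listed genes were measured, out of 25064 genes or transcribed features tested in all, and each of the 35 was well above background on all 8 arrays. Complex I takes electrons from NADH through a flavin and a chain of iron-sulfur clusters to ubiquinone, and it pumps protons out of the matrix. Its matrix arm carries the electron path and its membrane arm does the pumping, and accessory subunits surround the core subunits of both arms. White adipocytes hold fewer mitochondria than brown adipocytes, and use them among other things for fatty acid oxidation and to supply lipid synthesis.

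Total RNA came from the gonadal white fat of 4 Rap1-/- mice and of 4 wild-type (WT) mice, all 10 weeks old and on a C57BL6/129SV background, and each sample was hybridised to its own one-colour Agilent array. The deleted gene is Terf2ip, which encodes RAP1, a member of the telomere-capping shelterin complex that binds along chromosome arms as well. The Rap1-/- mice carry a deletion in every tissue, made by crossing floxed mice with EIIa-cre mice and then breeding the cre away; the loss is not confined to fat cells. The labels give no sex, while the study's text speaks of young females, a stage it chose because the knockout mice are not yet obese.

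Levels are log2 processed signal minus the 75th percentile of the same array (so 0 is that percentile), and a difference is Rap1-/- minus WT in the same log2 units. The 75th percentile lay between 302 and 497 intensity units, 59.7% to 65.2% of the spots on an array exceeded background clearly, and saturation affected 0 spots. Of the Terf2ip probes, one was well above background on 0 of the 4 Rap1-/- arrays and on 4 of the 4 WT arrays, and it was at least 49.9-fold lower in Rap1-/- (limma over all probes, adjusted p = 1.25e-06). A second Terf2ip probe was 2.38 log2 units higher in Rap1-/-, and where it lies relative to the deleted part is not given in the sources used here. Because that second probe was the brighter one it stood for the gene in the comparison of genotypes. Both slides held 2 arrays of each genotype, but on both slides the WT arrays held one pair of positions and the Rap1-/- arrays the other, so position and genotype cannot be told apart.

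Relative to the 75th percentile of each array, all 35 complex I subunits had a lower mean in Rap1-/- fat than in WT fat, whereas relative to spiked-in control RNA (E1A) only 6 of the 35 did. The same direction was seen for 59.9% of all features on the 75th percentile scale and for 13.5% with E1A scaling. The differences ran between -0.29 log2 units for Ndufab1 and -0.07 for Ndufa1, with a median of -0.18 over the members and of -0.04 over all features tested. None of the 35 passed the threshold of 0.05 after Benjamini-Hochberg adjustment in limma, the smallest adjusted p among them being 0.874, and 0.00399% of all features, which is 1 feature, passed it. That feature was Terf2ip. At an unadjusted p under 0.05, 4 subunits were lower and 0 were higher, where 3.31% of all features were lower at that p. The 95% interval of the difference lay below 0 for 4 subunits and held 0 for 31.

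**Figure D1:**
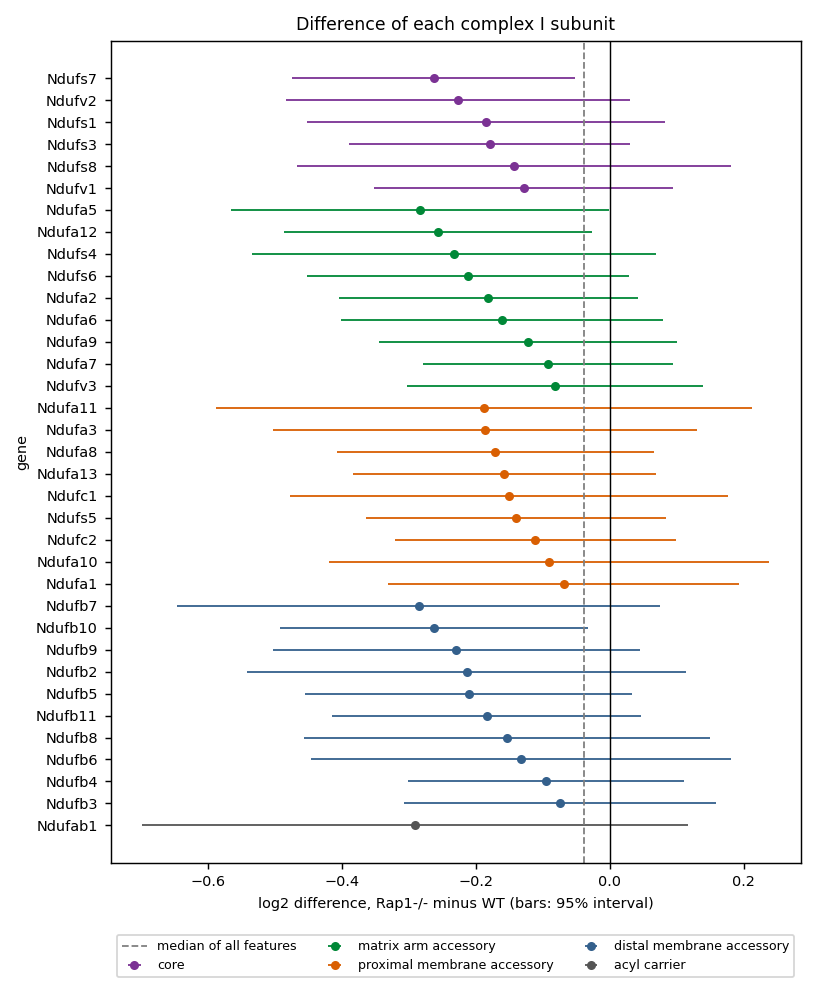
Difference of each of the 35 complex I subunits between Rap1-/- and WT fat (x axis, log2 units on the 75th percentile scale, bars are 95% intervals of limma, n = 4 arrays each), with genes grouped by their place in the complex. Each point lies left of the dashed median of all features (-0.04), 31 of the 35 intervals hold 0, and 29 of the 35 points would move to the right of 0 with E1A scaling.

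Scaling to E1A changed the direction by a shift that is the same for each feature. Before scaling, the mean E1A signal differed by only -0.0007 log2 units between the genotypes, while the 75th percentile itself was 0.23 higher in Rap1-/-. The E1A signal of replicates 1 to 4 was 11.84, 11.75, 11.67 and 11.76 in Rap1-/-, against 11.69, 11.70, 11.81 and 11.83 in WT. On slide 1 both Rap1-/- arrays lay above both WT arrays, and on slide 2 both lay below. The log2 75th percentile was 8.96, 8.85, 8.62 and 8.77 in Rap1-/-, against 8.55, 8.75, 8.24 and 8.72 in WT, lowest in WT replicate 3. Set against the 75th percentile, the mean E1A signal was thus 0.23 log2 units lower in Rap1-/- than in WT. Scaling to E1A raised the difference of each feature by that amount. The median over all features then became 0.20 and the median over the members 0.05. Single arrays were left out on the 75th percentile scale only, so the weight of WT replicate 3 in the E1A result was not tested. Such a shift leaves the distance between members and other features as it was, and under both scalings the member median lay 0.14 log2 units below the median of all features. In the table deposited by the authors, 28 of the 35 subunits had a lower mean in Rap1-/-, against 49.4% of all features, and the median over the members was -0.09 against 0.00 over all features. Its values matched a quantile normalisation, which holds the median over all features near 0.

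The probes of the members were among those with the brightest signal, which also depends on the probe, and bright features had lower Rap1-/- means in general on the 75th percentile scale. Of the 35 members, 34 were in the brightest 25% of all features and 23 were in the brightest 5%. Over the 1254 features of that brightest 5%, the median difference was -0.12 and 1090 had a lower mean in Rap1-/-. With quantile normalisation that median became 0.00, which the method brings about, since it gives every array the same distribution of values. The median over the members became -0.07, with 29 of 35 lower, against 49.4% of all features. The share of brightness in the members' difference was not tested.

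The arrays of the genotypes overlapped for most subunits. Averaged over the 35 members, each centred on its own mean, the Rap1-/- arrays stood at -0.20, 0.01, -0.13 and -0.02 log2 units, and the WT arrays at 0.27, -0.10, 0.05 and 0.14. The Rap1-/- mean was -0.09 ± 0.10 and the WT mean 0.09 ± 0.15 (SD, n = 4 each). WT replicate 1 was the highest array and Rap1-/- replicate 1 the lowest, while WT replicate 2 lay among the Rap1-/- arrays. Rap1-/- replicate 1 was the lowest of the 8 arrays for 22 of the 35 members, against 16.2% of all features, and WT replicate 1 was the highest for 30, against 16.3% of all features. WT replicate 2 lay below the Rap1-/- mean for 20 members. All 4 Rap1-/- arrays were below the WT mean for 24 members, 3 were for 9 and 2 were for 2, where all 4 were below it for 19.1% of all features.

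The number of members with low p moved with single arrays. Without WT replicate 1 the median over the members was -0.10 and 0 had an unadjusted p under 0.05, and without Rap1-/- replicate 1 it was -0.14 and 0. In those fits 2.19% and 2.12% of all features were lower at that p. Without WT replicate 2 the median was -0.24 and 15 members had an unadjusted p under 0.05, and in that fit 6.39% of all features were lower at that p, against 3.31% with all arrays. The count of members was 6 without Rap1-/- replicate 2, 1 without WT replicate 3, and 2 without WT replicate 4, Rap1-/- replicate 3 or Rap1-/- replicate 4. In the same order, 2.34%, 2.24%, 4.09%, 2.99% and 3.55% of all features were lower at that p. In each of these fits all 35 means stayed lower in Rap1-/- on the 75th percentile scale, as did 56.4% to 61.0% of all features. Within slide 1 the median was -0.16 and within slide 2 it was -0.18, against -0.05 and -0.03 over all features. All 35 means were lower in Rap1-/- on both slides, beside 59.6% and 57.6% of all features. The within-slide fits were chosen after seeing the data.

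**Figure D2:**
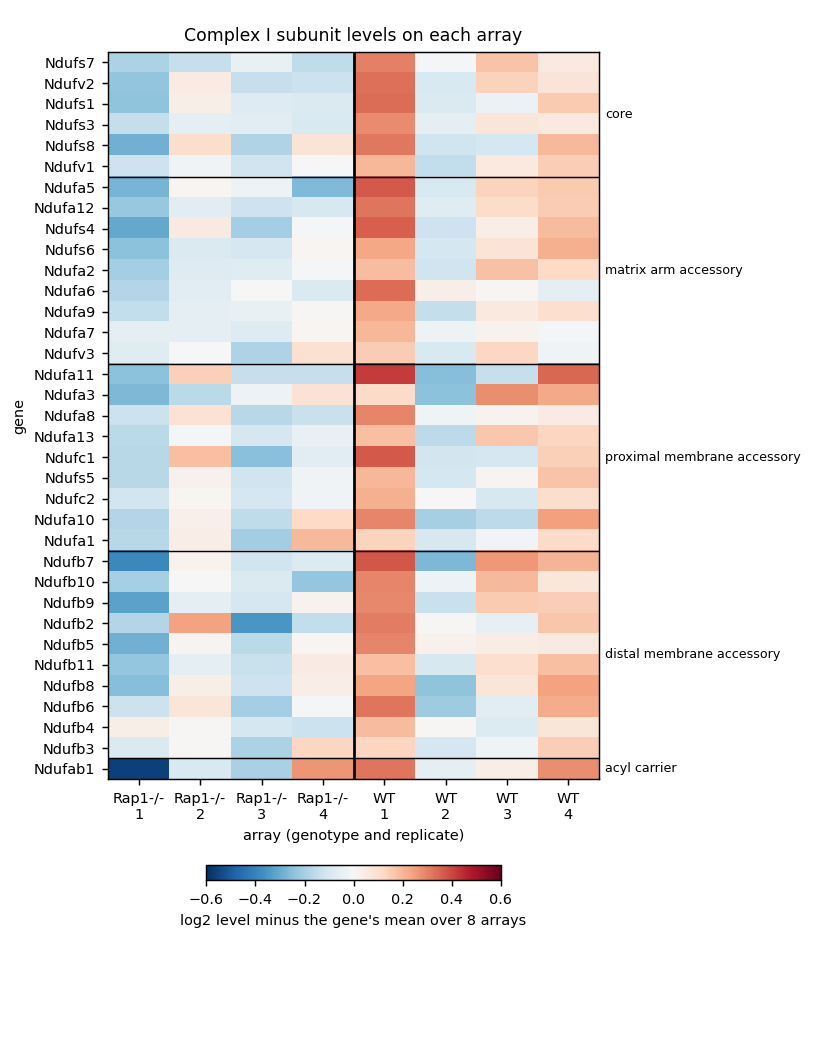
Level of each complex I subunit (rows) on each array (columns, Rap1-/- left of WT), as log2 level on the 75th percentile scale minus the gene's mean over the 8 arrays. WT replicate 1 is the highest array for 30 of the 35 genes and Rap1-/- replicate 1 the lowest for 22, while WT replicate 2 is near the Rap1-/- arrays. A scaling to E1A shifts whole columns and puts 29 of 35 Rap1-/- means above WT.

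Only Ndufs7 and Ndufb5 had all 4 Rap1-/- arrays below all 4 WT arrays, which held for 2.36% of all features. These genes encode a subunit of the matrix arm and one of the distal membrane arm. Without WT replicate 2, the genotypes did not overlap for 17 members, without Rap1-/- replicate 2 for 8 and without Rap1-/- replicate 4 for 4. Groups of 3 and 4 arrays separate more often, and in these fits that held for 7.29%, 3.58% and 4.78% of all features.

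The core subunits of the matrix arm carry the electron path. Ndufs7, whose protein holds the last iron-sulfur cluster before ubiquinone, had levels of 5.99, 6.04, 6.13 and 6.02 in Rap1-/- fat, against 6.48, 6.17, 6.35 and 6.24 in WT fat. Every Rap1-/- array was below every WT array, and the difference was -0.26 ± 0.09 (SE, 95% interval -0.47 to -0.05, limma unadjusted p = 0.0206, adjusted p = 0.874). Ndufv2, an iron-sulfur subunit at the NADH end of the arm, stood at 4.97, 5.26, 5.07 and 5.08 in Rap1-/-, against 5.54, 5.12, 5.34 and 5.28 in WT. Rap1-/- replicate 2 lay above WT replicate 2 there, and the difference was -0.23 (95% interval -0.48 to 0.03). Ndufs1, which binds several iron-sulfur clusters, had 5.16, 5.43, 5.32 and 5.31 in Rap1-/-, against 5.74, 5.31, 5.36 and 5.56 in WT. Its WT replicates 2 and 3 were within or close to the Rap1-/- range, with a difference of -0.18 (95% interval -0.45 to 0.08).

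Ndufs3, a core subunit without a cluster, had 5.88, 5.97, 5.96 and 5.93 in Rap1-/-, against 6.31, 5.97, 6.10 and 6.08 in WT, a difference of -0.18. Only WT replicate 2 reached into the Rap1-/- range. Ndufs8, another iron-sulfur subunit near the quinone site, had 2.86, 3.25, 2.97 and 3.23 in Rap1-/-, against 3.46, 3.03, 3.04 and 3.35 in WT, a difference of -0.14. Ndufv1, which binds NADH and the flavin, had 6.28, 6.38, 6.29 and 6.41 in Rap1-/-, against 6.60, 6.26, 6.46 and 6.55 in WT, a difference of -0.13. Genotypes overlapped in both genes, since WT replicate 2 was at or below several Rap1-/- arrays. Over the 6 core members the median difference was -0.18, and 6 of 6 had a lower mean in Rap1-/- on the 75th percentile scale, but 1 of 6 with E1A scaling.

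Among the 9 accessory subunits of the matrix arm, the median difference was -0.18 and 9 of 9 means were lower in Rap1-/-, with 2 of 9 lower by E1A scaling. Ndufa12 had 5.74, 5.90, 5.84 and 5.87 in Rap1-/-, against 6.29, 5.89, 6.07 and 6.12 in WT, a difference of -0.26 ± 0.10 (SE, 95% interval -0.49 to -0.03, limma unadjusted p = 0.0331). Ndufa5 had 6.06, 6.35, 6.30 and 6.07 in Rap1-/-, against 6.70, 6.24, 6.47 and 6.49 in WT, a difference of -0.28 ± 0.12 (SE, 95% interval -0.57 to -0.0018, limma unadjusted p = 0.0489). WT replicate 2 overlapped with the Rap1-/- arrays in both genes and the other WT arrays did not. Ndufs6, a zinc-binding subunit added late in assembly, had 6.46, 6.62, 6.60 and 6.72 in Rap1-/-, against 6.94, 6.60, 6.78 and 6.92 in WT, a difference of -0.21. Ndufs4, whose loss in humans and mice causes complex I deficiency with encephalopathy, differed by -0.23 (95% interval -0.53 to 0.07). The other members of this group were Ndufa2 at -0.18, Ndufa6 at -0.16, Ndufa9 at -0.12, Ndufa7 at -0.09 and Ndufv3 at -0.08.

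The 9 accessory subunits of the proximal membrane arm had a median difference of -0.15, with 9 of 9 lower means in Rap1-/- and 0 of 9 by E1A scaling. Ndufa1 had the highest difference of the 35 members, with levels of 6.24, 6.45, 6.20 and 6.60 in Rap1-/-, against 6.54, 6.31, 6.39 and 6.52 in WT. Genotypes overlapped widely, the highest of the 8 values being from Rap1-/- replicate 4, and the difference was -0.07 (95% interval -0.33 to 0.19). Ndufa13, also known as GRIM-19, differed by -0.16. The remaining members of this group were Ndufa11 and Ndufa3 at -0.19 each, Ndufa8 at -0.17, Ndufc1 at -0.15, Ndufs5 at -0.14, Ndufc2 at -0.11 and Ndufa10 at -0.09. Each of their 95% intervals held 0.

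In the distal membrane arm the 10 accessory subunits had a median difference of -0.20, and 10 of 10 had a lower mean in Rap1-/-, with 2 of 10 by E1A scaling. Ndufb10, which faces the intermembrane space, had 6.62, 6.82, 6.73 and 6.59 in Rap1-/-, against 7.11, 6.79, 7.01 and 6.89 in WT, a difference of -0.26 ± 0.10 (SE, 95% interval -0.49 to -0.03, limma unadjusted p = 0.0296). Only WT replicate 2 fell within the Rap1-/- range. Ndufb5 had 4.55, 4.85, 4.67 and 4.85 in Rap1-/-, against 5.13, 4.86, 4.88 and 4.89 in WT. The gap between the genotypes was narrow in Ndufb5, and its difference was -0.21 (95% interval -0.45 to 0.03). Ndufb3 had 6.22, 6.31, 6.12 and 6.43 in Rap1-/-, against 6.43, 6.21, 6.28 and 6.46 in WT, and the difference of -0.07 had a 95% interval of -0.31 to 0.16. Ndufb7 differed by -0.28 with a wide 95% interval of -0.64 to 0.08, Ndufb9 by -0.23, Ndufb2 by -0.21, Ndufb11 by -0.18, Ndufb8 by -0.15, Ndufb6 by -0.13 and Ndufb4 by -0.09.

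Ndufab1, the mitochondrial acyl carrier protein, which also serves fatty acid synthesis in the matrix, had 0.91, 1.38, 1.28 and 1.74 in Rap1-/-, against 1.79, 1.41, 1.51 and 1.75 in WT. The genotypes overlapped, and the difference of -0.29 had a 95% interval of -0.70 to 0.12. For 6 members a second probe was kept. It gave -0.15 for Ndufa5, -0.12 for Ndufb5, -0.16 for Ndufb11, -0.09 for Ndufb4 and -0.16 for Ndufb6, and for Ndufv3 a dimmer probe gave 0.11. Near-identical gene copies or processed copies could share a probe with some members, which was not checked because probe sequences were not used here.

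The promoters of the 4 members with an unadjusted p under 0.05 are shown because these genes have the smallest p of the 35. Each is the RefSeq window of GRCm38.p6 from 250 bases before to 50 bases after a transcription start, 5′ to 3′ on the gene's strand. Capitals mark matches on either strand to letters of the motif of NRF1 (GCGCANGCG), GABP (CCGGAAG), YY1 (AAGATGG) or ERR (AAGGTCA), known regulators of respiratory chain genes, or to the telomere repeat unit TTAGGG, which RAP1 is brought to at telomeres. Ndufs7 lies at chr10:80249199-80249498 on the plus strand, Ndufb10 at chr17:24724374-24724673 on the minus strand, Ndufa12 at chr10:94198785-94199084 on the plus strand, and the Ndufa5 window, one of 2 starts, at chr6:24527477-24527776 on the minus strand.
Ndufs7: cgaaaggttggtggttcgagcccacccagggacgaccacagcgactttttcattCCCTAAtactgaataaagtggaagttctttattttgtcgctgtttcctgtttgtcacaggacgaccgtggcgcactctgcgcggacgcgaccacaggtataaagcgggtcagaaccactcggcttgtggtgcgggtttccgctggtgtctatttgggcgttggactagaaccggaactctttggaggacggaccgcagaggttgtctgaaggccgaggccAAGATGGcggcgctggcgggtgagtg
Ndufb10: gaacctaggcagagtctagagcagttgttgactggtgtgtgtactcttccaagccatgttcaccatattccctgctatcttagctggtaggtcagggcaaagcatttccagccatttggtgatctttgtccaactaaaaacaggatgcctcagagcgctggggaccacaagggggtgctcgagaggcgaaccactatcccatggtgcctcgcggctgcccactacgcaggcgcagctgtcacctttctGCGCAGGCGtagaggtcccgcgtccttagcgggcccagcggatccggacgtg
Ndufa12: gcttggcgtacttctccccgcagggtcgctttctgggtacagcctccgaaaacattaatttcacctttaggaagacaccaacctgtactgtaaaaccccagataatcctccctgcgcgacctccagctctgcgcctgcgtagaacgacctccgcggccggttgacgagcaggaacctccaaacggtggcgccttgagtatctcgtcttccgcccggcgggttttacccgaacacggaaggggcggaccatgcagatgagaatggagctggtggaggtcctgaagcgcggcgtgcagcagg
Ndufa5: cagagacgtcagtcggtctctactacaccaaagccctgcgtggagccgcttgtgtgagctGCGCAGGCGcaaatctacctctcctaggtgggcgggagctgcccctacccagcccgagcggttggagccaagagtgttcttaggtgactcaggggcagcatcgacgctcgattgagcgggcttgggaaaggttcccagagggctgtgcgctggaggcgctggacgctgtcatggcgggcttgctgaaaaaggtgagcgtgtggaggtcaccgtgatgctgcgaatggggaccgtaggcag

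Windows were found for 32 of the 35 members, with 34 windows in all. The NRF1 letters were found in 9 of these 34 windows (26.5%), in Ndufb10 and Ndufa5 among others, against 6.25% of all 32851 promoter windows. The windows of Ndufa5 overlap and share a single match, so the letters were found for 8 of the 32 genes. The YY1 letters were in 7 windows (20.6%), Ndufs7 among them, against 6.34% of all windows. GABP letters were in 4 (11.8%) against 8.86%, ERR letters in 3 (8.82%) against 4.72%, and the telomere repeat unit in 6 (17.6%, Ndufs7 included) against 10.6%. In Ndufa12 none of these 5 strings was present. In all, 15 letter strings were searched, the longer forms overlap the shorter ones, and these 5 were picked for display after the counts were seen. The study reports that RAP1 along chromosome arms prefers the telomere repeat unit in tandem, and only the single unit was searched here. A match is a description of the letters and not evidence of binding.

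Other lists of the respiratory chain were set beside complex I. Of 39 listed subunits of complexes II to V, 37 were measured and 37 had a lower mean in Rap1-/- on the 75th percentile scale, with a median of -0.20, and 8 of 37 were lower with E1A scaling. Counts of lower means in this list and those below stand beside 59.9% of all features, or 13.5% with E1A scaling. Uqcrh, a hinge subunit of complex III, differed by -0.29, with 7.07, 7.26, 7.12 and 7.24 in Rap1-/-, against 7.64, 7.34, 7.46 and 7.40 in WT. Atp5g2, Atp5h and Atp5a1, all of ATP synthase, differed by -0.27, -0.24 and -0.23. These 4 genes were named because they had an unadjusted p under 0.05, and none passed after adjustment. Of all features, 3.31% were lower at that p. The 7 mitochondrially encoded subunits of complex I were not matched to a probe and are not analysed here.

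Of 19 assembly factors of complex I, 13 had a lower mean in Rap1-/- on the 75th percentile scale and 1 with E1A scaling, with a median of -0.05, near that of all features, and 0 had an unadjusted p under 0.05. Timmdc1, which helps build the proximal membrane arm, differed by -0.27, or by -0.14 with its probes averaged, and Tmem186 by 0.14. Among 12 regulators of mitochondrial biogenesis, 8 had a lower mean in Rap1-/- and 2 with E1A scaling, with a median of -0.01. Ppargc1a, the coactivator PGC1α, had -0.97, -0.53, -0.46 and -0.73 in Rap1-/-, against -0.18, -0.61, -0.19 and -0.48 in WT. Its genotypes overlapped, with a difference of -0.31 (limma unadjusted p = 0.0738, adjusted p = 0.874), and the related Ppargc1b differed by -0.29. A second, dimmer probe of Ppargc1a gave 0.24, and the mean of its probes gave -0.03.

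**Figure D3:**
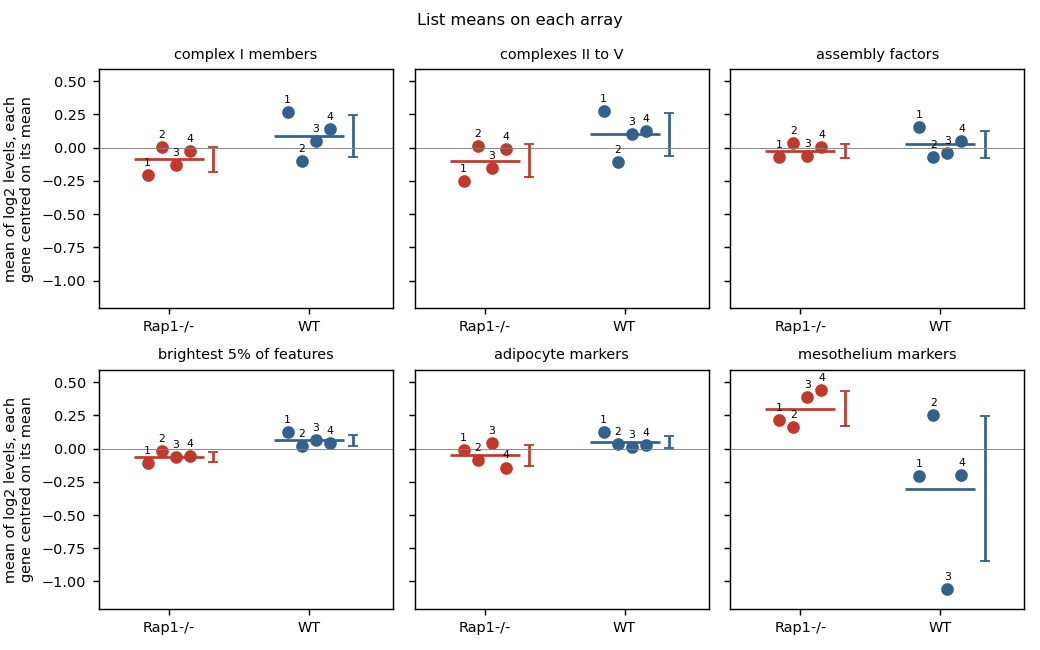
Mean over the genes of 6 lists on each array (points, numbered by replicate), each gene as log2 level on the 75th percentile scale centred on its own mean, with the genotype mean (line) and SD (bar, n = 4 arrays). In complex I and in complexes II to V, WT replicate 1 is highest and WT replicate 2 lies among the Rap1-/- arrays, and in mesothelium markers WT replicate 3 is lowest. With E1A scaling the Rap1-/- means move up by 0.23 relative to WT.

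Markers of the cell types in gonadal fat varied between the same samples, and in whole tissue fewer cells of a type and less RNA per cell cannot be told apart. Of 8 adipocyte markers, 7 had a lower mean in Rap1-/- on the 75th percentile scale, with a median of -0.18, and 3 were lower with E1A scaling. In the deposited table the adipocyte median was -0.01 and by quantile normalisation -0.02, against -0.09 and -0.07 for the complex I members. Cidec, a lipid droplet protein, differed by -0.31, and Retn and Lipe by -0.28 and -0.27, all with an unadjusted p under 0.05, beside 3.31% of all features lower at that p. The marker with a higher mean in Rap1-/- was Lep, which encodes leptin, at 0.63, named after its value was seen. All 7 mesothelium markers had a higher mean in Rap1-/-, with a median of 0.64, and Krt8 and Upk1b differed by 0.79 and 0.64. The mean of the mesothelium list was between 0.16 and 0.44 on the Rap1-/- arrays, against between -1.06 and 0.26 on the WT arrays. The highest WT array was replicate 2, which also had the lowest WT mean over the complex I members. Other arrays went otherwise. The lowest mesothelium mean was that of WT replicate 3, whose complex I mean of 0.05 lay below WT replicates 1 and 4. The highest was that of Rap1-/- replicate 4, whose complex I mean was -0.02. The part of these markers in the complex I result was not tested.

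Skeletal muscle genes, from a tissue rich in mitochondria, varied widely between samples of 1 genotype. The mean over 12 such genes stood at -3.95, 3.36, 2.16 and -4.91 on the Rap1-/- arrays, against 2.05, 0.14, -0.77 and 1.92 on the WT arrays. The Rap1-/- arrays with most muscle signal were replicates 2 and 3, whose means over complex I were 0.01 and -0.13, and those with least were replicates 1 and 4, at -0.20 and -0.02. Of the 12 genes, 4 were not well above background on every array, so the low means carry values at the floor. Myh4 and Ckm, well above background on 6 and 7 of the 8 arrays, have differences of no settled size, -5.60 and -2.28 here (unadjusted p of 0.177 and 0.330) and -3.20 and -1.15 in the deposited table. Of 7 listed brown fat markers 6 were measured, with 3 lower in Rap1-/- and a median of -0.13, Cox8b at -0.41 and Cidea at -0.36. Their part was not tested either.

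The other marker lists had no member with an unadjusted p under 0.05. The median was 0.23 for 7 fibroblast and preadipocyte markers, with Col1a1 at 0.49 and Thy1 at 0.23, and 0.14 for 6 macrophage markers, with Lyz2 at 0.22 and Mrc1 at 0.21. It was -0.04 for 6 endothelial markers, with Kdr at -0.34 and Emcn at -0.22, and 0.11 for 5 lymphocyte markers, with Ms4a1 at 0.46 and Cd4 at -0.37. Of 6 ovary markers only Inha and Star were bright enough to test, at 0.28 and -0.04.

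**Figure D4:**
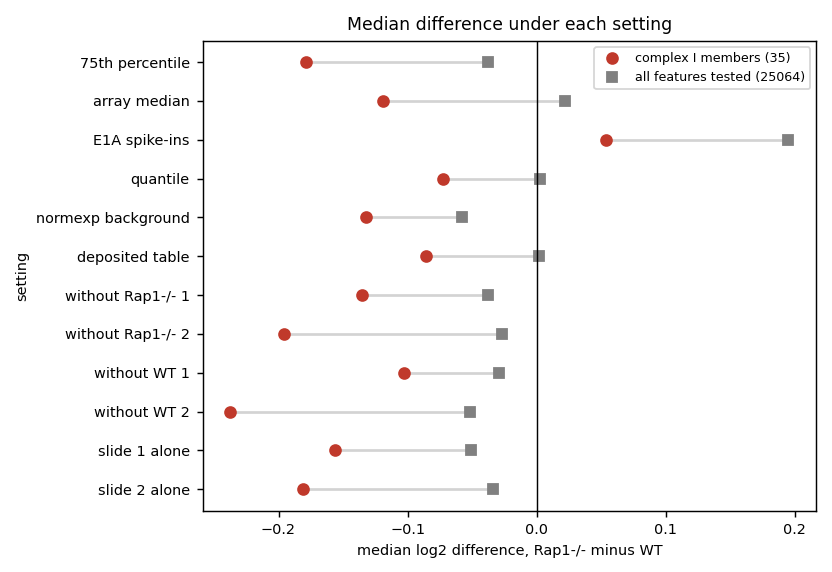
Median log2 difference (Rap1-/- minus WT, x axis) of the 35 complex I members (circles) and of all 25064 features (squares) under 12 settings (rows). The members lie left of all features in each row shown, but the side of 0 depends on the scaling, with the members at -0.18 by the 75th percentile and at 0.05 by E1A.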

How the data were processed

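The authors hybridised fat RNA of 4 Rap1-/- and 4 WT mice to Agilent one-colour arrays, 1 per sample. Per the file headers, Feature Extraction 10.7.3.1 quantified every spot as a linear intensity (processed, median and local background), with quality flags of 0 or 1. Values in the table deposited by the authors are log2. They matched normexp (offset 50) and then quantile normalisation on every array, although the method is not given in the sources used here.

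Each array's own 75th percentile was taken off the log2 processed signal, spots flagged as outliers were dropped, and replicate spots were averaged. A probe had to exceed background clearly on 4 or more of 8 arrays (33982 did), and the brightest stood for its gene. RefSeq accessions named 26056 of 55681 probes (46.8%). The comparison used lmFit and eBayes of limma 3.58.1 in R 4.3.3, adjusted over all 25064 features by Benjamini-Hochberg at 0.05. Members, lists and named genes were chosen with earlier results of these data known. Named genes were all members, Terf2ip and, per list, those with an unadjusted p under 0.05 or else the 2 with the smallest p. Ndufb5, Ndufb7 and Ndufab1 were singled out after their values were seen. An item of the lists is not reported here.

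On simulated data with 200 changed features of 25064, the fit found 0.20% of those changed by 0.25 log2 units, 15.2% of those changed by 0.5, 58.8% at 1 and 88.8% at 2. On average 5.3% of the calls in these simulations were false. Features were drawn independently of each other and changed at any brightness, so the shares found were not measured for the complex I members. Normexp used the median spot signal. Replicates are separate samples, and their number limits the precision.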

Additional observations from a re-analysis of the deposited data

Results flagged for a closer look

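Of 70 groups of 4 arrays over the members, 3 held an array far from the others by Dixon's 95% criterion, and chance gives about 1 in 20. Ndufa8 in Rap1-/- replicate 2 had a level of 3.98 against 3.76 for the nearest Rap1-/- array. Ndufa13 in WT replicate 2 had 7.54 against 7.82, and Ndufb5 in WT replicate 1 had 5.13 against 4.89. Among the other named genes, Mrc1 in WT replicate 1 had 2.36 against 2.56, and Thy1 in Rap1-/- replicate 3 had 2.61 against 3.03.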

How the results depend on the processing

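The median difference over the complex I members kept its sign under 10 of 11 alternatives planned beside leaving out an array. It also kept its sign within both slides, and it became 0.054 with E1A scaling. Some of these alternatives could move neither the median, -0.18, nor the count of lower means in this design. They were the slide block, the replicate block, the trended robust variance and the changes to the background filter. The count of members with a lower mean, 35, became 6 with E1A scaling, and with the other alternatives it was between 28 and 35. Members with an unadjusted p under 0.05, 4 on the 75th percentile scale, numbered 0 with E1A scaling, median scaling and quantile normalisation, 1 with the deposited table and with normexp, and 7 with a trended robust variance. In the same order, 0.33%, 1.92%, 2.25%, 2.12%, 3.82% and 3.70% of all features were lower at that p. Within slide 1 and within slide 2 the members at that p numbered 0, beside 2.53% and 1.78% of all features lower. The non-overlapping members numbered 5 and 23, beside 20.6% and 18.2% of all features in fits of 2 arrays against 2. These within-slide fits were added after seeing the data. Non-overlapping members, 2 on the 75th percentile scale, numbered 0 with E1A scaling and quantile normalisation and 1 with median scaling, normexp, the deposited table and the mean of probes. In the same order, that held for 0.16%, 1.41%, 1.30%, 2.08%, 1.22% and 2.25% of all features. Features called over the whole array, 1 in the comparison as reported, numbered 2 with the deposited table, normexp and a trended robust variance, and 0 within each slide.

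With the replicate block, 1 member had an unadjusted p under 0.05, beside 3.24% of all features lower at that p. Deviations of same-numbered arrays from their genotype means correlated at -0.22 to -0.13, and those of differently numbered arrays at -0.35 to 0.37. With 4 arrays per genotype these values cannot settle whether the samples were paired. Replicates 1 and 2 of both genotypes were on slide 1, and replicates 3 and 4 on slide 2. Leaving out 1 array at a time gave 0 to 15 members with an unadjusted p under 0.05, beside 2.12% to 6.39% of all features lower at that p. Non-overlapping members numbered 2 to 17, beside 3.27% to 7.29% of all features. The median was -0.24 to -0.10, and 1 feature was called each time. All 35 means were lower each time, beside 56.4% to 61.0% of all features. With E1A scaling the following differences were positive: Ndufa1 0.16, Ndufa2 0.0518, Ndufa3 0.0465, Ndufa6 0.0725, Ndufa7 0.14, Ndufa8 0.0623, Ndufa9 0.11, Ndufa10 0.14, Ndufa11 0.0457, Ndufa13 0.0758, Ndufb2 0.0193, Ndufb3 0.16, Ndufb4 0.14, Ndufb5 0.0224, Ndufb6 0.10, Ndufb8 0.0798, Ndufb9 0.00399, Ndufb11 0.0495, Ndufc1 0.0824, Ndufc2 0.12, Ndufs1 0.0489, Ndufs3 0.0541, Ndufs4 0.000487, Ndufs5 0.0926, Ndufs6 0.0218, Ndufs8 0.0906, Ndufv1 0.10, Ndufv2 0.00624, Ndufv3 0.15, Atp5a1 0.00109, Emcn 0.0103 and Star 0.19. With the deposited table the positive ones were Ndufa1 0.0381, Ndufa7 0.00647, Ndufa13 0.00159, Ndufb3 0.0592, Ndufb4 0.0448, Ndufv1 0.0104, Ndufv3 0.051 and Star 0.0417. By quantile normalisation they were Ndufa1 0.0479, Ndufa7 0.0191, Ndufa13 0.00394, Ndufb3 0.0299, Ndufb4 0.0174, Ndufv3 0.045 and Star 0.00351. The mean of probes gave Ndufv3 0.0159 and Star 0.18, median scaling Star 0.0212. Within slide 1 Cidea was 0.36 and Inha -0.10, and within slide 2 Star 0.30. Leaving out 1 array, Cox8b lay between -0.648 and 0.00771 and Star between -0.264 and 0.0917. Causes were not tested.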
